A study of Mus musculus with 24 samples.

Results

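Collagens are the triple-helical proteins that make up most of the fibrous extracellular matrix. The family was taken as every transcript cluster (the array's unit for a gene) whose only platform gene symbol has the form Col, number, a, number. This gave 46 of the 35556 transcript clusters on the gene-level array. They stand for 44 of the 19920 genes tested, of which 11 encode fibrillar collagens, 8 basement membrane collagens, 9 network collagens and 16 other collagens. At exon level the family had 1913 of the 197783 probe sets that could be set against their gene. Col6a5 and Col6a6 had 2 clusters each, and the brighter was used.

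Affymetrix MoGene arrays measured 12 mouse RNA samples, 2 for each of 6 groups, covering cardiomyocyte formation in culture and the growing heart. ES cells (embryonic stem cells, day 0), embryonic bodies (EB, day 7, the aggregates in which ES cells differentiate) and cardiac bodies (CB, day 14) made up the cultures, which were led toward cardiomyocytes in DMEM with 10% serum. The hearts were whole organs from E17.5 embryos, from postnatal day 1 (P1) and from adults. All values are log2 signals. A change is the difference between the means of 2 groups with n = 2 arrays each, given ± its standard error (SE). The SE is limma's moderated one and pools the spread within all 6 groups, so it is not that of the 2 groups named alone. A gene was called at a limma adjusted p under 0.05, adjusted over all genes tested. The labels name no ES line, strain, sex, pooling or adult age, and do not say that replicates came from separate cultures or animals. The p-values therefore measure the spread between these samples, which may be technical. The adult samples are numbered apart from all others in the series, and the labels name no batch. Adult stage and any batch of the adult arrays cannot be told apart.

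Array medians lay between 5.62 and 5.76, and the arrays of a group correlated at 0.968 to 0.988 across transcript clusters, which are not independent replicates. All 8 cardiomyocyte markers (Myh6, Tnnt2 and others) had a mean signal at or above the median signal of the tested genes, 6.06, in CB and in every heart group, against 1 of 8 in ES cells. The 8 pluripotency markers averaged 10.03 and 10.26 in the CB arrays and 11.09 and 11.05 in the ES arrays, so CB cultures still held their transcripts. In the EB arrays they averaged 7.88 and 8.03, and 7 of the 8 rose and 0 fell in CB against EB. For these markers the later CB cultures were thus nearer to ES cells than EB were. The arrays of a group differed by over 1 in 5.4% of genes at P1, 2.75% in EB and at most 1.28% elsewhere. Among collagens this happened in EB only, for Col3a1, Col1a1 and Col1a2, which were higher in replicate 1, and Col26a1, which was higher in replicate 2. In whole hearts and mixed cultures, fewer cells of a type and less RNA per cell cannot be told apart.

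Collagen chains are built in the endoplasmic reticulum. There prolyl and lysyl hydroxylases modify them and the chaperone Hsp47 (Serpinh1) holds 3 chains in a helix. Fibrillar chains (types I, II, III, V, XI, XXIV and XXVII) are trimmed outside the cell and packed into cross-linked fibrils. In the heart, fibroblasts make most of the type I and III fibrils that hold muscle bundles together. Type IV collagen instead forms the mesh of basement membranes around muscle cells and vessels. Network collagens form beaded filaments (type VI) or hexagonal lattices (types VIII and X), and the rest coat fibrils, cross the cell membrane or anchor epithelia.

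Of the 44 collagens, 24 (54.5%) were called as differing among the 6 groups in limma's F test, against 59.6% of all genes. Among those 24, the group with the highest mean was P1 for 12, E17.5 for 7, EB for 3, ES for 1, adult for 1 and CB for 0. The highest groups of all other genes are not given here, so these counts describe the collagens alone. In the other 20, group means spanned at most 1.01. Of all 44, 34 had at least 1 group mean at or above 6.06; the other 10 stayed below it in every group.

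In culture, at most 8 of the 44 collagens were called in a comparison. In EB against ES cells 8 collagens (18.2%) rose, against 12% of all genes, and 0 fell, against 8.61% of all genes. At an unadjusted p under 0.05, 0 collagens fell either. Leaving out ES replicate 1 left 3 calls in place of 8, and leaving out ES replicate 2 left 4. In CB against ES cells 4 (9.09%) rose, all of type IV, against 6.19% of all genes. There 0 fell, against 3.61% (0 at an unadjusted p under 0.05). In CB against EB 1 collagen (2.27%) rose and 1 (2.27%) fell, where 5.45% of all genes rose and 6.43% fell. Between 1 and 5 collagens were called there with an array left out: 1 without CB replicate 1, 4 without either P1 array, and 5 without either EB array.

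In hearts the calls were mostly decreases in adults. At P1 against E17.5, 1 collagen (2.27%) rose and 0 fell (0 at an unadjusted p under 0.05), where 2.08% of all genes rose and 3.05% fell. That single call was lost without either E17.5 array or without P1 replicate 2, when 0 were called, and 3 were called without P1 replicate 1 or either EB array. In adult hearts against P1 hearts 25 of 44 collagens (56.8%) fell and 1 rose, where 14.7% of all genes fell and 15.6% rose. In adult against E17.5 hearts 21 (47.7%) fell and 2 rose, where 18% of all genes fell and 18.1% rose; 15 collagens in all were called without E17.5 replicate 2. In CB against E17.5 hearts 15 (34.1%) fell and 0 rose (0 at an unadjusted p under 0.05), where 11.6% of all genes fell and 12.1% rose. The median change of the 44 collagens was -0.67 for adult minus P1, -0.52 for adult minus E17.5 and -0.31 for CB minus E17.5. Over all genes it was 0.04, 0.05 and -0.02. These comparisons share arrays, so their counts are not independent of each other.

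**Figure D1:**
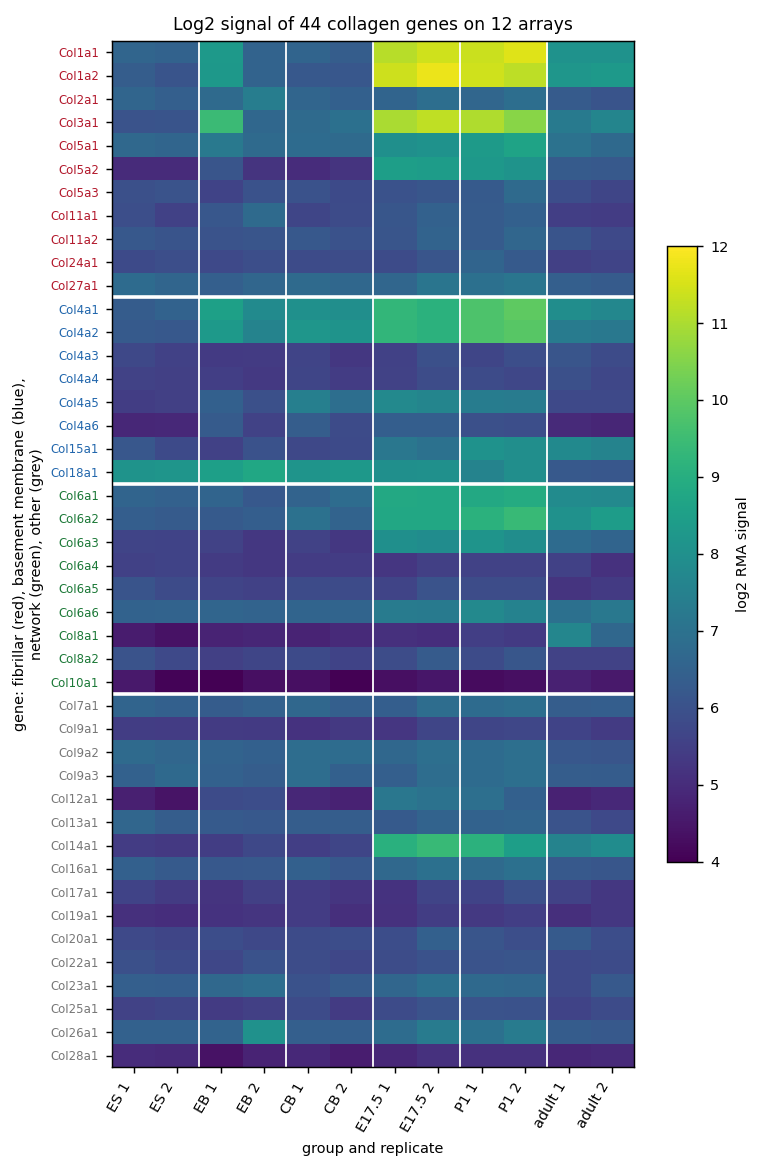
Log2 signal (colour) of the 44 collagen genes (rows, by class) on the 12 arrays (columns, by group and replicate). Col1a1, Col1a2 and Col3a1 lay between 10.59 and 11.77 on the 4 arrays of E17.5 and P1 hearts, and between 7.29 and 8.32 on the 2 adult arrays.

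**Figure D2:**
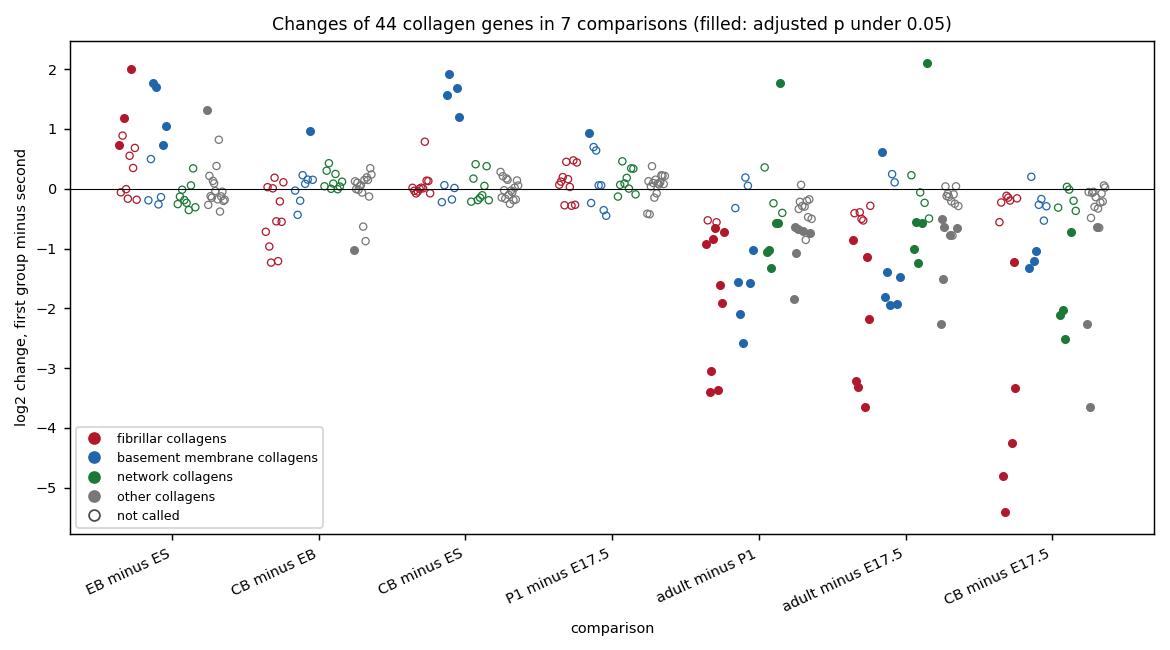
Log2 change of each of the 44 collagen genes (points, coloured by class) in the 7 comparisons; filled points had an adjusted p under 0.05. In adult minus P1, 25 filled points lie below 0 and 1, Col8a1, lies above.

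Several collagen genes lie next to each other in the genome. In the GRCm38.p6 gene order the 44 genes sit on 15 chromosomes and form 8 adjacent pairs, among them Col3a1 and Col5a2, Col6a2 and Col6a1, and the 3 type IV pairs Col4a1/Col4a2, Col4a4/Col4a3 and Col4a6/Col4a5. Each type IV pair is known to run head to head from a shared promoter region. The RefSeq windows of Col4a1 and Col4a2 (250 bases before to 50 after the start) overlap by 78 bases, and their starts lie 21 bases apart. They are shown because both genes were called, in the same direction, in 5 of the 7 comparisons. Capitals mark CCAAT or ATTGG (the CCAAT box on either strand), GGGCGG or CCGCCC (the GC box) and TATAAA or TTTATA (the TATA box). The windows are Col4a1 at chr8:11312777-11313076 on the minus strand and Col4a2 at chr8:11312555-11312854 on the plus strand (RefSeq, GRCm38.p6), each 5′ to 3′ on its own strand.
Col4a1: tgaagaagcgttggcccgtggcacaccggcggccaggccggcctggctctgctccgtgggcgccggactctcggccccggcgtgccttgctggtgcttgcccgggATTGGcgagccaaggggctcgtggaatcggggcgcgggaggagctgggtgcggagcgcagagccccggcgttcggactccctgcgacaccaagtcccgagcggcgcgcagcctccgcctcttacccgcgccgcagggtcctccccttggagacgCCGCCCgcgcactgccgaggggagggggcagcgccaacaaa
Col4a2: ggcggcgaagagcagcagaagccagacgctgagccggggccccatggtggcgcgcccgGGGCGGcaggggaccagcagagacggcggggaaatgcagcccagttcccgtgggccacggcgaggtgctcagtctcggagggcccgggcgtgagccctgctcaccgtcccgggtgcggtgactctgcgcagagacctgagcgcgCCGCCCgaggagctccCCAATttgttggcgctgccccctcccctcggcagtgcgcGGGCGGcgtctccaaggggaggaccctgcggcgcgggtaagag

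The windows of Col1a2 and Col8a1 are shown because these genes went in opposite directions in adult hearts. They lie at chr6:4505368-4505667 on the plus strand and chr16:57754688-57754987 on the minus strand (RefSeq, GRCm38.p6), with capitals as above.
Col1a2: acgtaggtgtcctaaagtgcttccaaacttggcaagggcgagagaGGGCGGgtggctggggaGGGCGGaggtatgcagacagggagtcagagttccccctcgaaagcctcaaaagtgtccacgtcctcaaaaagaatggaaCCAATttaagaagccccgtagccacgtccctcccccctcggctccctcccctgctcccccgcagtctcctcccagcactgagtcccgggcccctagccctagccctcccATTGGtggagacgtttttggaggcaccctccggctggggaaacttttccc
Col8a1: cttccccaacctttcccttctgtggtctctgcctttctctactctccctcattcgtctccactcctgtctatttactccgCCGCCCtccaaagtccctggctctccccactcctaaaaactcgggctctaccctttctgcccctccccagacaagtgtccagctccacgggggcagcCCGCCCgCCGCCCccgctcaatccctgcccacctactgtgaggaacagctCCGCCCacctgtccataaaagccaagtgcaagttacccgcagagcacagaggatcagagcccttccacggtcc
The Col1a2 window held 2 CCAAT boxes and 2 GC boxes, and the Col8a1 window 4 GC boxes and 0 CCAAT boxes. Of 32851 mouse promoter windows of the same length, 37.4% held a CCAAT box, 35.7% a GC box and 13.6% a TATA box. Of 38 collagen windows, which cover 35 of the genes, 13, 23 and 5 held them. A match describes the letters only.

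The fibrillar collagens carried the largest changes of the family. Col1a1, Col1a2 and Col3a1, the chains of type I and type III fibrils, were 8.24-fold to 10.6-fold lower in adult hearts than in P1 hearts, and 19.1-fold to 42.4-fold lower in CB than in E17.5 hearts. Of 11 fibrillar collagens 9 fell and 0 rose in adult against P1 hearts, 6 fell and 0 rose in adult against E17.5 hearts, and 5 fell and 0 rose in CB against E17.5 hearts; 0 rose at an unadjusted p under 0.05 in these 3 comparisons. Their median changes were -0.93, -0.86 and -0.56. Of all genes 14.7%, 18% and 11.6% fell in these comparisons, and 15.6%, 18.1% and 12.1% rose. At P1 against E17.5 hearts 0 of 11 were called, with 2 at an unadjusted p under 0.05, where 2.08% of all genes rose and 3.05% fell.

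Col1a1 (transcript cluster 10380419), the alpha 1 chain of type I collagen, had 6.60 and 6.51 in ES cells, 8.34 and 6.54 in EB, 6.59 and 6.36 in CB, 11.14 and 11.43 at E17.5, 11.36 and 11.60 at P1, and 8.07 and 8.07 in adult hearts. The embryonic and newborn hearts were the high samples and adult hearts lay between them and the cultures, of which EB replicate 1 alone stood above the adult arrays. Col1a1 fell by 3.40 ± 0.40 in adult against P1 hearts (10.6-fold; adjusted p = 6.03e-05), by 3.21 ± 0.40 in adult against E17.5 hearts (adjusted p = 5.7e-05) and by 4.81 ± 0.40 in CB against E17.5 hearts (adjusted p = 5.79e-06). It was not called in EB against ES cells.

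Col1a2 (10536220), the alpha 2 chain of the same fibril, had 6.37 and 6.08 in ES cells, 8.27 and 6.56 in EB, 6.20 and 6.16 in CB, 11.40 and 11.77 at E17.5, 11.41 and 11.20 at P1, and 8.20 and 8.32 in adult hearts. E17.5 and P1 hearts were again the high samples, and EB replicate 1 lay at the adult level. It fell by 3.04 ± 0.39 in adult against P1 hearts (8.24-fold; adjusted p = 0.000107), by 3.32 ± 0.39 in adult against E17.5 hearts (adjusted p = 3.47e-05) and by 5.40 ± 0.39 in CB against E17.5 hearts (42.4-fold; adjusted p = 1.68e-06).

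Col3a1 (10346015), the only chain of type III collagen, had 6.06 and 6.08 in ES cells, 9.46 and 6.67 in EB, 6.75 and 6.95 in CB, 10.99 and 11.23 at E17.5, 11.06 and 10.59 at P1, and 7.29 and 7.64 in adult hearts. E17.5 and P1 hearts overlapped each other and stood above every other array. It fell by 3.36 ± 0.60 in adult against P1 hearts (10.3-fold; adjusted p = 0.0011), by 3.65 ± 0.60 in adult against E17.5 hearts (adjusted p = 0.000446) and by 4.26 ± 0.60 in CB against E17.5 hearts (adjusted p = 0.000271). Its genomic neighbour Col5a2, a chain of the type V collagen found inside type I fibrils, fell by 1.91 ± 0.24, 2.18 ± 0.24 and 3.34 ± 0.24 in the same comparisons. Col5a1, its partner chain, fell by 1.62 ± 0.20, 1.14 ± 0.20 and 1.23 ± 0.20.

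The calls of 3 fibrillar collagens in EB against ES cells depended on single arrays. Col3a1 rose by 2.00 ± 0.60 (adjusted p = 0.0322), but by 0.60 without EB replicate 1 (adjusted p = 0.155) and by 3.39 without EB replicate 2 (adjusted p = 4e-06). Its call was also lost without either ES array (adjusted p = 0.133 and 0.132), without either E17.5 array (0.0527) and after quantile normalization (0.0657). Col1a2 rose by 1.19 ± 0.39 (adjusted p = 0.0493), but by 0.34 without EB replicate 1 (adjusted p = 0.46) and by 2.04 without EB replicate 2. Leaving out any of 9 arrays, that is either ES, CB, E17.5 or adult array or EB replicate 1, ended this call, with adjusted p from 0.0688 to 0.46, as did quantile normalization (0.116) and exon-level medians (0.135).

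Col11a1 (10495449), a chain of the type XI collagen best known from cartilage, went with the other EB array. It had 5.91 and 5.55 in ES cells, 6.16 and 6.78 in EB, 5.67 and 5.82 in CB, 6.14 and 6.48 at E17.5, 6.30 and 6.44 at P1, and 5.47 and 5.42 in adult hearts. It rose by 0.74 ± 0.22 in EB against ES cells (adjusted p = 0.033), a call lost without ES replicate 1 (0.0501), ES replicate 2 (0.257) or EB replicate 2 (change 0.43, adjusted p = 0.277), after quantile normalization (0.0639) and with exon-level medians (0.0614). It fell by 0.93 ± 0.22 in adult against P1 hearts (adjusted p = 0.00704), though not with exon-level medians (0.088), and by 0.86 ± 0.22 against E17.5, which was lost without E17.5 replicate 2 (0.0849) and with exon-level medians (0.0646). Col27a1, a fibrillar collagen of cartilage, and Col5a3 fell by 0.66 ± 0.19 and 0.73 ± 0.20 in adult against P1 hearts; without P1 replicate 2 their adjusted p was 0.0732 and 0.122, and without adult replicate 2 it was 0.0933 and 0.111. With exon-level medians Col27a1 was not called either (0.0604). Col2a1, the main cartilage collagen, had 6.77 and 7.39 in EB and between 6.09 and 6.90 on the other 10 arrays, and was not called in any comparison.

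As a list, fibroblast markers fell with the fibrillar collagens in CB against E17.5 hearts but not in adult hearts. The mean log2 signal of 10 markers was 4.83 and 4.80 in ES cells, 6.36 and 5.58 in EB, 5.20 and 5.28 in CB, 8.41 and 8.64 at E17.5, 8.58 and 8.29 at P1, and 8.93 and 9.26 in adult hearts. In CB against E17.5 hearts 9 of the 10 fell and 0 rose, among them Dcn (decorin) by 6.55 ± 0.49 and Dpt (dermatopontin) by 5.73 ± 0.25; their median change was -2.78. In the same comparison 9 of 10 endothelial markers fell (median -3.33), as did 5 of 7 macrophage markers (median -1.06) and 5 of 8 smooth muscle and pericyte markers (median -1.22), with 0 higher in each list. Among all genes 11.6% fell and 12.1% rose there. The part of these markers in the collagen decrease was not tested. In EB, Pdgfra had 8.81 and 6.61, Postn 8.77 and 6.72, and Lum 7.09 and 4.49. Each was higher in replicate 1, as were Dcn, Gsn, Col1a1, Col1a2 and Col3a1. The other markers of the list, Tcf21, Thy1, Dpt, Mfap5 and Pi16, were higher in replicate 2, none above 5.94.

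In adult hearts the markers were not lower as a list: 5 of 10 rose and 1 fell against P1, and 5 rose and 2 fell against E17.5. Among all genes 15.6% rose and 14.7% fell against P1, and 18.1% and 18% against E17.5. Dcn had 12.25 and 12.69 in adult hearts, against 11.01 and 10.12 at P1. Pdgfra had 8.87 and 9.01 in adult hearts, against 8.57 and 7.88 at P1. Postn, a matrix protein of fetal and activated fibroblasts, differed from these: it had 8.55 and 8.79 in adult hearts, against 11.33 and 11.16 at E17.5, and fell by 2.58 ± 0.61 (adjusted p = 0.00539). Tcf21 was also lower on both adult arrays, at 6.76 and 7.40, than at P1 (7.79 and 8.37) or E17.5 (7.74 and 7.86). Of 8 smooth muscle and pericyte markers 5 fell and 1 rose in adult against P1 hearts, and of 7 macrophage markers 6 rose; their part in the collagen changes was not tested.

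**Figure D3:**
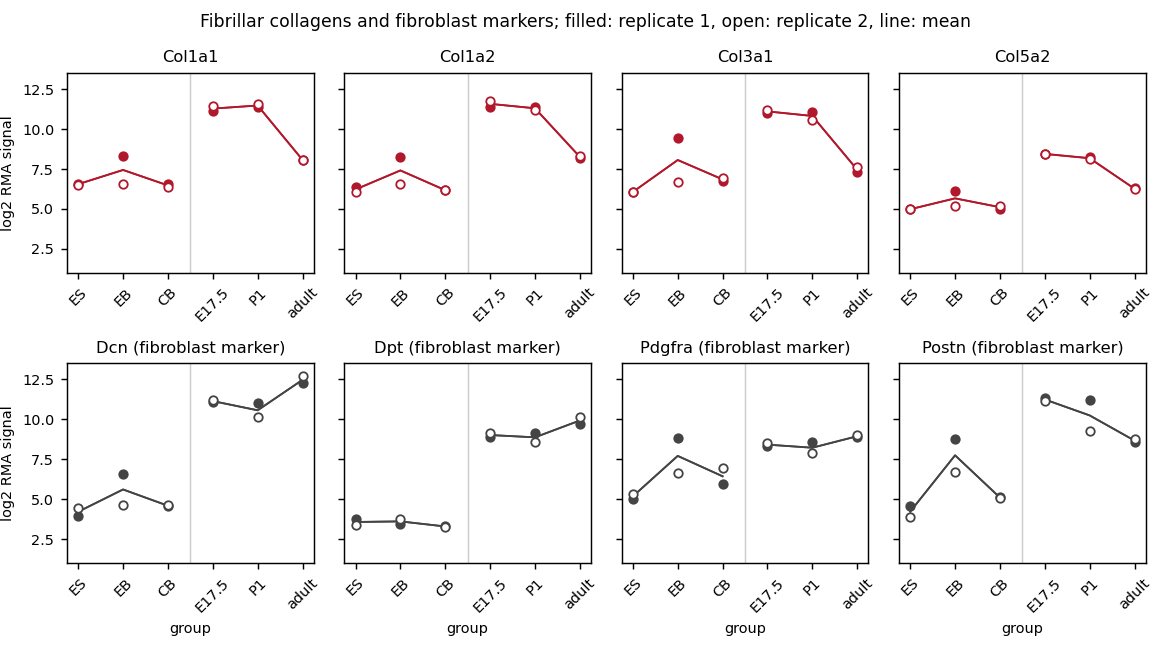
Log2 signal of 4 fibrillar collagens (top) and 4 fibroblast markers (bottom) in the 6 groups; filled points are replicate 1, open points replicate 2, and lines join group means within cultures and within hearts. Col1a1 fell by 3.40 in adult against P1 hearts. The markers split: Dcn was higher on both adult arrays, at 12.25 and 12.69, than on both P1 arrays, at 11.01 and 10.12, as were Dpt and Pdgfra. Postn was lower on both adult arrays, at 8.55 and 8.79, than on both P1 arrays, at 11.22 and 9.27.

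Of the basement membrane collagens, the widely expressed type IV chains Col4a1 and Col4a2 rose as ES cells differentiated. They were 3.41-fold and 3.25-fold higher in EB than in ES cells, were highest at P1, and were 4.26-fold and 5.97-fold lower in adult than in P1 hearts. Of 8 genes in the class, 4 rose in EB against ES cells and 4 in CB against ES cells, and 5 fell in adult against P1 and in adult against E17.5 hearts. The class medians were 0.61, 0.63, -1.30 and -1.44. Markers of several cell types rose with these genes in EB against ES cells. Of 13 markers of parietal and primitive endoderm, which makes much type IV collagen and laminin, 6 rose and 0 fell in EB against ES cells, with a mean signal of 7.33 and 6.89 in EB and 6.11 and 6.03 in ES cells. Of 10 endothelial markers 7 rose and 2 fell, of 8 epithelial markers 6 rose and 0 fell, and of 8 smooth muscle and pericyte markers 5 rose and 0 fell. Among all genes 12% rose and 8.61% fell. In CB against ES cells 6 of the endoderm markers rose and 1 fell, and 0 of the endothelial markers were called (1 at an unadjusted p under 0.05). Of all genes 6.19% rose and 3.61% fell there. The endoderm list was highest in hearts, with a mean of 7.65 to 8.02 on the heart arrays. Gata6 had 9.53 and 8.86 in CB and 10.06 to 10.46 in hearts. Sox17 had 5.22 and 5.17 in CB, against 5.11 and 4.98 in ES cells, and Lama1 5.64 and 6.49, against 7.80 and 7.91. The list thus does not mark endoderm alone here. The endoderm markers did not follow type IV in adult hearts, where 2 rose and 3 fell against P1 and 3 rose and 2 fell against E17.5. Among all genes 15.6% rose and 14.7% fell against P1, and 18.1% and 18% against E17.5. The part of these markers in the type IV changes was not tested.

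Col4a1 (10576973) had 6.32 and 6.51 in ES cells, 8.55 and 7.82 in EB, 8.01 and 7.96 in CB, 9.30 and 9.10 at E17.5, 9.78 and 10.01 at P1, and 7.91 and 7.70 in adult hearts. Adult hearts lay at the level of the differentiated cultures, and ES cells below every other array. It rose by 1.77 ± 0.23 in EB against ES cells (adjusted p = 0.000132) and by 1.57 ± 0.23 in CB against ES cells (adjusted p = 0.000743). It fell by 2.09 ± 0.23 in adult against P1 hearts (adjusted p = 3.23e-05), by 1.39 ± 0.23 in adult against E17.5 hearts (adjusted p = 0.000418) and by 1.21 ± 0.23 in CB against E17.5 hearts (adjusted p = 0.00196).

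Col4a2 (10570068), on the other side of the shared promoter shown above, had 6.26 and 6.21 in ES cells, 8.29 and 7.59 in EB, 8.21 and 8.11 in CB, 9.28 and 9.14 at E17.5, 9.77 and 9.93 at P1, and 7.32 and 7.22 in adult hearts. ES cells were again below every other array and P1 arrays above, and its adult arrays lay below all EB and CB arrays. It rose by 1.70 ± 0.21 in EB (adjusted p = 0.000105) and by 1.92 ± 0.21 in CB (adjusted p = 8.68e-05) against ES cells. It fell by 2.58 ± 0.21 in adult against P1 hearts (adjusted p = 4.74e-06), by 1.94 ± 0.21 in adult against E17.5 hearts (adjusted p = 1.91e-05) and by 1.05 ± 0.21 in CB against E17.5 hearts (adjusted p = 0.00322). None of the 10 calls of these 2 genes was lost in any alternative fit or with any array left out.

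The X-linked pair Col4a5 and Col4a6, whose chains replace or join those of Col4a1 and Col4a2 in some basement membranes, also rose in culture. Col4a5 (10602105) had 5.44 and 5.51 in ES cells, 6.44 and 5.96 in EB, 7.44 and 6.89 in CB, 7.77 and 7.63 at E17.5, 7.35 and 7.33 at P1, and 5.77 and 5.76 in adult hearts. Each culture stage lay above the one before it, and adult hearts were near ES cells. It was the only collagen that rose in CB against EB, by 0.96 ± 0.21 (adjusted p = 0.0101); this call was lost without EB replicate 2 (adjusted p = 0.0928) or CB replicate 1 (0.124) and with exon-level medians (0.0596). It rose by 0.73 ± 0.21 in EB against ES cells (adjusted p = 0.0273), which did not hold without ES replicate 1 (0.139), ES replicate 2 (0.107) or EB replicate 1 (0.233), while exon-level medians gave a rise of 1.31 (0.00331). Its rise of 1.69 ± 0.21 in CB against ES cells (adjusted p = 0.00024) and its decreases of 1.58 ± 0.21 in adult against P1 and 1.93 ± 0.21 in adult against E17.5 hearts held with each array left out.

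Col4a6 (10607012) had 4.89 and 4.91 in ES cells, 6.31 and 5.59 in EB, 6.37 and 5.82 in CB, 6.38 and 6.40 at E17.5, 5.96 and 5.92 at P1, and 4.97 and 4.85 in adult hearts. ES cells and adult hearts overlapped at the low end. It rose by 1.05 ± 0.24 in EB against ES cells (adjusted p = 0.00728), a call lost without ES replicate 1 (0.0504) or EB replicate 1 (change 0.69, 0.0799). It rose by 1.20 ± 0.24 in CB against ES cells (adjusted p = 0.00631), lost without ES replicate 1 (0.0525), ES replicate 2 (0.0524) or CB replicate 1 (0.0963). It fell by 1.03 ± 0.24 in adult against P1 hearts (adjusted p = 0.00575), but by 0.63 with exon-level medians (0.113), and by 1.48 ± 0.24 in adult against E17.5 hearts (adjusted p = 0.00037), or 0.99 with exon-level medians.

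The pair known mainly from kidney and other specialised basement membranes did not follow. Col4a3 (10347807) lay between 5.30 and 6.12 on the 12 arrays, with the lowest array in CB and the highest in adult hearts. Col4a4 (10356088) lay between 5.31 and 5.95. For both genes the arrays of the groups compared overlapped, except in EB against ES cells, where both EB arrays lay lower. Neither gene was called in any of the 7 comparisons.

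Col15a1 and Col18a1, the multiplexins that link basement membranes to the matrix beneath, went in opposite directions in adult against E17.5 hearts. Col15a1 (10504775) had 6.18 and 5.79 in ES cells, 5.56 and 6.02 in EB, 5.73 and 5.79 in CB, 7.16 and 7.00 at E17.5, 8.08 and 7.94 at P1, and 7.79 and 7.59 in adult hearts. All hearts stood above all cultures. It was the only collagen called at P1 against E17.5, with a rise of 0.93 ± 0.20 (adjusted p = 0.0191), which was lost without E17.5 replicate 1 (0.0957), E17.5 replicate 2 (0.163) or P1 replicate 2 (0.0534) and with exon-level medians (0.152). It rose by 0.61 ± 0.20 in adult against E17.5 hearts (adjusted p = 0.0326), which did not hold without any of the 4 arrays compared (0.0566 to 0.16) or with exon-level medians (0.0625). Its decrease of 1.32 ± 0.20 in CB against E17.5 hearts (adjusted p = 0.000508) held throughout.

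Col18a1 (10370259), whose C-terminal fragment is endostatin, had 8.11 and 8.17 in ES cells, 8.50 and 8.77 in EB, 8.13 and 8.27 in CB, 7.98 and 8.02 at E17.5, 7.57 and 7.95 at P1, and 6.23 and 6.16 in adult hearts. Cultures and young hearts lay close together, and only the adult arrays stood apart, below all others. It fell by 1.57 ± 0.18 in adult against P1 (adjusted p = 4.86e-05) and by 1.81 ± 0.18 in adult against E17.5 hearts (adjusted p = 9.31e-06). It was not called in culture or in CB against E17.5 hearts.

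**Figure D4:**
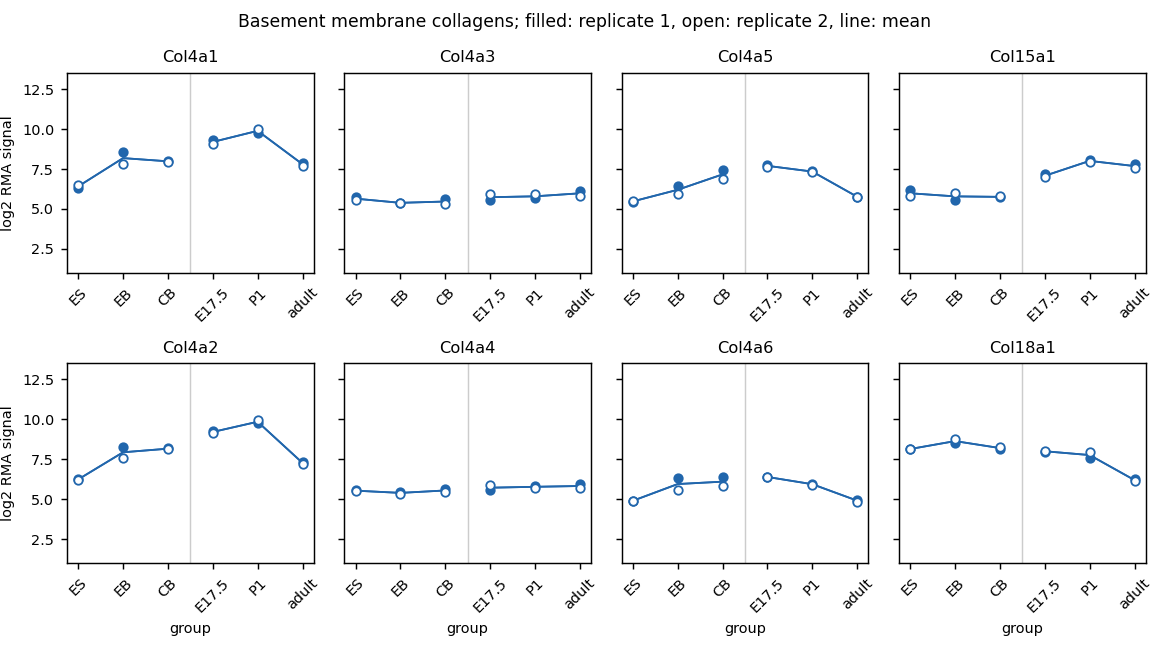
Log2 signal of the 8 basement membrane collagens in the 6 groups, with the head-to-head type IV pairs above each other; filled points are replicate 1, open points replicate 2, and lines join group means within cultures and within hearts. Col4a1 and Col4a2 rose by 1.77 and 1.70 in EB against ES cells, while Col4a3 and Col4a4 lay between 5.30 and 6.12 on all 12 arrays.

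Among the network collagens, the 3 classical type VI chains fell in adult hearts and were low in CB, while Col8a1 rose in adults. Of 9 genes 5 fell and 1 rose in adult against P1 hearts, 4 fell and 1 rose in adult against E17.5 hearts, and 4 fell and 0 rose in CB against E17.5 hearts. Of all genes 14.7%, 18% and 11.6% fell in these comparisons, and 15.6%, 18.1% and 12.1% rose. In the 3 culture comparisons 0 of 9 were called, with 0 at an unadjusted p under 0.05. Of all genes 5.45% to 12% rose and 3.61% to 8.61% fell there. The class medians were -0.58, -0.50 and -0.37 in the comparisons with adult hearts or CB.

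Col8a1 (10440091), a short-chain collagen of vessel walls and the eye, had 4.62 and 4.38 in ES cells, 4.81 and 4.87 in EB, 4.80 and 4.96 in CB, 5.12 and 5.04 at E17.5, 5.48 and 5.35 at P1, and 7.68 and 6.68 in adult hearts. The adult arrays were unequal, but both stood above all others. It rose by 1.77 ± 0.26 in adult against P1 hearts (3.4-fold; adjusted p = 0.000279) and by 2.10 ± 0.26 in adult against E17.5 hearts (4.29-fold; adjusted p = 4.83e-05). With an adult array left out the rises were 1.27 to 2.26 and 1.60 to 2.60, and both calls held. Col8a2, its partner chain, was not called.

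Col6a1 (10370210) had 6.57 and 6.49 in ES cells, 6.59 and 6.20 in EB, 6.56 and 6.84 in CB, 8.83 and 8.79 at E17.5, 8.84 and 8.91 at P1, and 7.86 and 7.77 in adult hearts. Its adult arrays lay between the cultures and the young hearts. It fell by 2.11 ± 0.18 in CB against E17.5 hearts (adjusted p = 6.18e-06), by 1.07 ± 0.18 in adult against P1 hearts (adjusted p = 0.00073) and by 1.00 ± 0.18 in adult against E17.5 hearts (adjusted p = 0.000826), the last of these by 0.52 and without a call in exon-level medians (0.0965).

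Its neighbour Col6a2 (10370180) had 6.39 and 6.30 in ES cells, 6.27 and 6.39 in EB, 6.98 and 6.54 in CB, 8.79 and 8.79 at E17.5, 9.10 and 9.39 at P1, and 8.03 and 8.43 in adult hearts. The groups ran in the same order as for Col6a1. It fell by 2.03 ± 0.20 in CB against E17.5 hearts (adjusted p = 1.98e-05) and by 1.02 ± 0.20 in adult against P1 hearts (adjusted p = 0.00218). Its change of -0.56 ± 0.20 in adult against E17.5 hearts (adjusted p = 0.0471) was not called without any of 7 arrays, that is either ES, EB or E17.5 array or adult replicate 1 (0.0541 to 0.29; change -0.36 without adult replicate 1), with the intensity trend (0.0514) or in exon-level medians (change -0.24, 0.592).

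Col6a3 (10356520), the longest of the classical type VI chains, had 5.63 and 5.61 in ES cells, 5.56 and 5.29 in EB, 5.57 and 5.29 in CB, 8.0 and 7.88 at E17.5, 8.14 and 7.91 at P1, and 6.80 and 6.59 in adult hearts. It fell by 2.51 ± 0.18 in CB against E17.5 hearts (adjusted p = 1.56e-06), by 1.33 ± 0.18 in adult against P1 (adjusted p = 0.000153) and by 1.25 ± 0.18 in adult against E17.5 hearts (adjusted p = 0.000169). Every heart array was above every cultured array. Col6a4 and Col10a1, the collagen of hypertrophic cartilage, were not called in any comparison.

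Col6a5 and Col6a6 each had a second, dimmer cluster that gave other values. The second cluster of Col6a6 differed by -1.88 between CB and E17.5 hearts, where the cluster used gave -0.73 ± 0.16 (adjusted p = 0.00596) and the mean of both -1.30. The second cluster of Col6a5 was 4.20 and 4.11 in EB, against 5.33 and 5.76 in ES cells, a difference of -1.39, where the cluster used gave -0.36. The decreases of Col6a5 in adult hearts, 0.58 ± 0.18 against P1 and 0.57 ± 0.18 against E17.5, were not called with the mean of both clusters (0.61 and 0.287) or with exon-level medians (changes -0.07, 0.887, and -0.22, 0.592). The first was also lost without any P1 or adult array (0.0591 to 0.131), and the second without E17.5 replicate 2 (change -0.38, 0.202), adult replicate 1 (0.117) or adult replicate 2 (0.0504). Col6a6 fell by 0.58 ± 0.16 in adult against P1 hearts, lost without P1 replicate 1 (0.0769) or adult replicate 1 (0.12) and with exon-level medians (0.0666), while the mean of both clusters gave -0.95 (0.00169).

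Among the other collagens, the fibril-associated Col12a1 and Col14a1 carried the large changes. Of 16 genes 6 fell and 0 rose in adult against P1 and in adult against E17.5 hearts, and 3 fell and 0 rose in CB against E17.5 hearts; 0 rose at an unadjusted p under 0.05. The class medians were -0.49, -0.27 and -0.22. Of all genes 14.7%, 18% and 11.6% fell in these comparisons, and 15.6%, 18.1% and 12.1% rose. Col7a1, Col17a1 and Col19a1 were among the 10 genes of the class with no call in any of the 7 comparisons. Col13a1, a membrane-spanning collagen, fell by 0.63 ± 0.18 in adult against P1 hearts (adjusted p = 0.0165), lost without P1 replicate 2 (0.0502) or adult replicate 2 (0.114). It fell by 0.51 ± 0.18 in adult against E17.5 hearts (adjusted p = 0.04), lost without either CB array (0.0545), E17.5 replicate 2 (0.232) or adult replicate 2 (0.215) and after quantile normalization (0.0595). With exon-level medians its changes were -0.24 against P1 (0.543) and -0.28 against E17.5 (0.443), and neither was called.

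Col12a1 (10595211), which binds the surface of type I fibrils, was the only collagen outside the fibrillar and basement membrane classes that rose in EB. It had 4.71 and 4.41 in ES cells, 5.83 and 5.90 in EB, 4.90 and 4.78 in CB, 7.18 and 7.01 at E17.5, 6.92 and 6.45 at P1, and 4.77 and 4.91 in adult hearts. Both EB arrays were alike, unlike those of the type I chains, and adult hearts overlapped CB. It rose by 1.31 ± 0.19 in EB against ES cells (adjusted p = 0.000391) and fell by 1.03 ± 0.19 in CB against EB (adjusted p = 0.00406), the only collagen that fell there. It fell by 1.84 ± 0.19 in adult against P1 hearts (adjusted p = 2.62e-05), by 2.26 ± 0.19 in adult against E17.5 hearts (adjusted p = 3.07e-06) and by 2.26 ± 0.19 in CB against E17.5 hearts (adjusted p = 6.66e-06). All of these held with each array left out.

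Col14a1 (10424140), a related fibril-associated chain, had 5.41 and 5.33 in ES cells, 5.44 and 5.73 in EB, 5.48 and 5.68 in CB, 9.09 and 9.38 at E17.5, 9.15 and 8.48 at P1, and 7.57 and 7.90 in adult hearts. All cultures lay below every heart array; EB and CB overlapped, and ES cells lay just below both. It fell by 3.66 ± 0.23 in CB against E17.5 hearts (12.6-fold; adjusted p = 6.17e-07), by 1.51 ± 0.23 in adult against E17.5 (adjusted p = 0.00027) and by 1.08 ± 0.23 in adult against P1 hearts (adjusted p = 0.00363).

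Col9a2 (10507742), a chain of the cartilage collagen type IX, had 6.17 and 6.10 in adult hearts, against 6.79 and 6.94 at P1 and 6.66 and 6.91 at E17.5, and lay between 6.46 and 6.87 in culture. It fell by 0.73 ± 0.16 in adult against P1 hearts (adjusted p = 0.00463) and by 0.65 ± 0.16 against E17.5, which was lost without E17.5 replicate 2 (0.0723). Of 9 cartilage markers 0 rose and 2 fell in adult against P1 hearts, where 15.6% of all genes rose and 14.7% fell. At most 2 of the 9 reached a mean of 6.06 in any group.

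Col23a1 (10375838), a membrane-spanning collagen, had 6.43 and 6.38 in ES cells, 6.70 and 6.87 in EB, 6.02 and 6.29 in CB, 6.63 and 6.94 at E17.5, 6.73 and 6.68 at P1, and 5.78 and 6.24 in adult hearts. Its 3 calls were small and depended on arrays. It fell by 0.78 ± 0.20 in adult against E17.5 hearts (adjusted p = 0.00818), lost without E17.5 replicate 2 (0.0815) or adult replicate 1 (0.0872), and by 0.70 ± 0.20 in adult against P1 hearts (0.0178), lost without P1 replicate 1 (0.0538) or adult replicate 1 (0.155) and in exon-level medians (change -0.46, 0.206). Its decrease of 0.63 ± 0.20 in CB against E17.5 hearts (0.0348) was lost without either ES, CB or E17.5 array (0.0507 to 0.244) and in exon-level medians (0.124). Col26a1, the collagen higher in EB replicate 2, had 6.54 and 8.05 in EB, against 6.48 and 6.47 in ES cells, and was not called.

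Genes whose products handle collagen were followed in 4 lists, and their calls were not recomputed with arrays left out. Of all genes 12% rose and 8.61% fell in EB against ES cells, and 5.45% and 6.43% in CB against EB. At P1 against E17.5 the shares were 2.08% and 3.05%, and in CB against E17.5 hearts 12.1% and 11.6%. In adult hearts they were 15.6% and 14.7% against P1, and 18.1% and 18% against E17.5. Of 21 measured genes for modification and folding, 8 rose and 1 fell in EB against ES cells, with a list median of 0.51. P3h2, a prolyl 3-hydroxylase that acts on type IV chains, had 8.28 and 7.49 in EB, against 4.33 and 4.89 in ES cells, and rose by 3.28 ± 0.26 (adjusted p = 3.8e-06). Serpinh1, the collagen chaperone, had 8.86 and 8.90 in EB, against 6.07 and 6.34 in ES cells, and rose by 2.67 ± 0.19 (adjusted p = 1.89e-06). Fkbp14, a prolyl isomerase, rose by 1.64 ± 0.23. All 3 fell again in CB against EB, by 1.65 ± 0.26, 0.77 ± 0.19 and 0.84 ± 0.23, and of the list 5 fell and 1 rose there.

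In adult against E17.5 hearts 10 of these 21 genes fell and 3 rose, with a median of -0.59, and against P1 5 fell and 3 rose, with a median of 0.04. P4hb, the beta subunit of prolyl 4-hydroxylase, had 8.89 and 8.88 in adult hearts, against 11.02 and 10.98 at E17.5, and fell by 2.11 ± 0.16 (adjusted p = 9.36e-07). P3h1, a prolyl 3-hydroxylase of fibrillar chains, fell by 1.97 ± 0.25, and P4ha3, a catalytic subunit of prolyl 4-hydroxylase, by 1.67 ± 0.23. At P1 against E17.5 4 fell and 0 rose, led by P4ha1, another catalytic subunit, at -1.60 ± 0.20. In CB against E17.5 hearts 10 of 21 fell and 0 rose, with P4ha3 at -1.38 ± 0.23, Fkbp14 at -1.36 ± 0.23 and Serpinh1 at -1.22 ± 0.19.

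Of 13 measured genes for processing and cross-linking, 4 rose and 3 fell in EB against ES cells. Pxdn, the peroxidase that cross-links type IV collagen, had 9.84 and 9.26 in EB, against 6.14 and 6.44 in ES cells, and rose by 3.26 ± 0.22 (adjusted p = 1.03e-06). Bmp1, the procollagen C-proteinase, rose by 1.96 ± 0.18. Pcolce2, an enhancer of that enzyme, had 5.67 and 7.17 in EB, against 9.36 and 9.55 in ES cells, and fell by 3.04 ± 0.35; it was 8.36 and 8.48 in adult hearts, against 4.67 and 4.76 at E17.5, a rise of 3.70 ± 0.35 (adjusted p = 6.11e-06). Lox, the lysyl oxidase that cross-links fibrils, had 4.45 and 3.84 in CB, against 7.14 and 7.66 at E17.5, and fell by 3.26 ± 0.31 (adjusted p = 1.56e-05), 1 of 6 genes of the list that fell there while 1 rose. It fell by 1.25 ± 0.31 in adult against E17.5 hearts, where 2 of 13 (15.4%) fell and 2 (15.4%) rose, near the shares of all genes.

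Of 9 measured collagen receptors 4 rose and 0 fell in EB against ES cells, led by Itgb1, the common integrin beta chain, at 1.60 ± 0.25. Adult against E17.5 hearts had 3 higher and 3 lower. Ddr1, a collagen-activated receptor kinase of epithelia, had 7.41 and 7.19 in adult hearts, against 9.05 and 8.99 at E17.5, and fell by 1.72 ± 0.24 (adjusted p = 0.000139). Its mesenchymal relative Ddr2 had 7.85 and 8.09 in adult hearts, against 6.72 and 6.75 at E17.5, and rose by 1.24 ± 0.31 (adjusted p = 0.00737). Itga1, the alpha chain of a type IV collagen integrin, fell by 2.43 ± 0.32 in CB against E17.5 hearts, where 3 fell and 0 rose.

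Of 18 measured genes known to regulate collagen transcription, 9 rose and 0 fell in EB against ES cells, with Tgfb2 at 2.94 ± 0.28, Twist1 at 2.17 ± 0.20 and Prrx1, higher in EB replicate 2 (6.31 and 8.18 in EB), at 1.99 ± 0.42. In CB against EB 6 fell and 0 rose, and the same 3 genes fell by 1.57 ± 0.28, 1.55 ± 0.20 and 1.97 ± 0.42. In adult against E17.5 hearts, where most called collagens fell, 8 of the 18 (44.4%) rose and 1 (5.56%) fell, against 18.1% and 18% of all genes. Runx1 rose by 1.79 ± 0.24, Prrx1 by 1.63 ± 0.42 and the ligand gene Tgfb3 by 1.56 ± 0.20.

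At exon level, each probe set was set against its gene on the same array, and the change of that difference (the index) was called where its size was at least 1 and its adjusted p under 0.05. Of collagen probe sets, 1 of 637 was called for EB minus ES (0.018% of all probe sets), 0 of 696 for CB minus EB (0.00306% of all), 1 of 587 for CB minus ES (0.108% of all) and 0 of 1108 for P1 minus E17.5 (0% of all). By limma 81 and 60 of them had an unadjusted p under 0.05 in the 2 comparisons with 0 calls. In CB against E17.5 hearts 16 of 805 (1.99%) were called, against 0.241% of all. With adult hearts the share was high everywhere: 140 of 838 (16.7%) for adult minus P1, against 13.4% of all probe sets, and 176 of 853 (20.6%) for adult minus E17.5, against 16.4% of all. Adult stage and any batch of the adult arrays cannot be told apart in these shares. In those 2 comparisons 34 and 53 of the called probe sets changed in the direction opposite to their gene. The counts depended on arrays: 140 became 47 without P1 replicate 1 and 53 without P1 replicate 2, and 176 became 93 without E17.5 replicate 1 and 77 without E17.5 replicate 2. The count of 16 became 0 without CB replicate 1, at most 2 without CB replicate 2 or either E17.5 or P1 array, 6 without either ES or adult array, and 24 without either EB array.

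Probe set 10570072 of Col4a2 changed with its gene but further. It had 9.77 and 9.26 in EB and 9.63 and 9.63 in CB, against 5.35 and 4.41 in ES cells. It rose by 4.64 and 4.75, where the gene rose by 1.70 and 1.92, and the index changed by 2.94 ± 0.30 (adjusted p = 0.0447) and 2.82 ± 0.30 (adjusted p = 0.0185). The EB call was lost with any array but EB replicate 1 left out (adjusted p up to 0.238), and the CB call without ES replicate 2 or any CB, E17.5 or P1 array (up to 0.216).

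Another Col4a2 probe set, 10570117, went against its gene in adults. It had 10.74 and 10.48 in adult hearts, against 8.84 and 9.37 at P1 and 8.07 and 7.66 at E17.5. It was thus highest in the hearts where the gene fell. Its index rose by 4.08 ± 0.25 against P1 (adjusted p = 0.00037) and by 4.68 ± 0.25 against E17.5 (adjusted p = 0.0003). Probe set 10424145 of Col14a1 had 9.09 and 8.87 in adult hearts, against 6.32 and 3.87 at E17.5, an index rise of 5.39 ± 0.96 (adjusted p = 0.00756) while the gene fell by 1.51. Its index rise of 3.57 ± 0.96 against P1 (adjusted p = 0.0392) was lost without any of 8 arrays, those of ES, CB, P1 and adult (up to 0.167). Probe set 10479431 of Col9a3 had 7.41 and 6.78 in adult hearts, against 3.93 and 2.74 at E17.5, an index rise of 4.05 ± 0.59 (adjusted p = 0.00349). E17.5 values of the Col14a1 and Col9a3 probe sets lay below the median probe set signal, 6.46, so the sizes of their index rises are uncertain.

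Other probe sets fell further than their gene in adult hearts. Probe set 10370289 of Col18a1 had 2.30 and 1.91 in adult hearts, against 7.91 and 8.24 at P1 and 8.57 and 8.57 at E17.5, and between 8.67 and 9.61 in culture. Its index fell by 4.40 ± 0.21 against P1 (adjusted p = 0.000335) and by 4.66 ± 0.21 against E17.5 (adjusted p = 0.000236). Probe set 10536243 of Col1a2 had 2.46 and 3.14 in adult hearts, against 10.79 and 10.51 at P1, and its index fell by 4.81 ± 0.65 (adjusted p = 0.00323). Probe set 10380428 of Col1a1 had 3.52 and 3.14 in adult hearts, against 10.30 and 10.32 at P1, an index change of -3.58 ± 0.57 (adjusted p = 0.00599). All adult values of these probe sets lay far below the median probe set signal, 6.46. On adult replicate 2 the Col18a1 one equalled a Col5a2 one (1.91), and the Col1a2 and Col1a1 ones equalled each other (3.14). Such values may lie at the floor of the arrays, so the sizes of these index falls are uncertain.

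Probe set 10508594 of Col16a1, a fibril-associated chain, also fell further than its gene. It had 8.05 and 5.82 in adult hearts and between 11.37 and 12.30 on the other 10 arrays. Its index fell by 4.64 ± 0.61 against P1 (adjusted p = 0.00297), while the gene changed by -0.68 ± 0.17 (adjusted p = 0.0112), a call lost without P1 replicate 2 (0.0504) or adult replicate 2 (0.0603). The gene's change against E17.5, -0.64 ± 0.17 (adjusted p = 0.0126), was lost without E17.5 replicate 2 (0.104) or adult replicate 2 (0.064). Against P1 the index also fell by 3.63 ± 0.60 for probe set 10470486 of Col5a1 (adjusted p = 0.00682). It fell by 2.96 ± 0.71 for probe set 10354330 of Col5a2 (adjusted p = 0.0253), a call lost without either P1 or adult array (up to 0.117). Against E17.5 it fell by 3.50 ± 0.49 for probe set 10577019 of Col4a1 (adjusted p = 0.00311). Adult values of the Col5a1, Col5a2 and Col4a1 probe sets were near the floor too, at 1.91 to 4.13.

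In CB against E17.5 hearts, 8 collagen genes had a called probe set. Probe set 10470515 of Col5a1 had 4.66 and 5.86 in CB, against 11.12 and 11.04 at E17.5, and its index fell by 4.60 ± 0.52 (adjusted p = 0.02) where the gene fell by 1.23. Probe sets 10380429 of Col1a1 and 10536238 of Col1a2 changed by -0.48 and -1.16, where their genes fell by 4.81 and 5.40. The Col1a1 probe set had 10.62 and 10.04 in CB, against 10.69 and 10.93 at E17.5, and the Col1a2 probe set 10.74 and 10.53 in CB, against 11.50 and 12.09 at E17.5. Their index rises were 4.33 ± 0.54 (adjusted p = 0.026) and 4.24 ± 0.48 (adjusted p = 0.02). Both probe sets were bright in the other cultures too. In ES cells and EB the Col1a1 one had 9.47 to 9.81 and the Col1a2 one 9.77 to 10.46. Their high signal was thus not particular to CB. The index of the largest called probe set of Col6a1, Col23a1, Col16a1, Col2a1 and Col6a6 fell by 2.35 to 3.58. Their CB values, 2.14 to 6.25, lay below the median probe set signal, 6.46. Every one of these 8 calls was lost with some arrays left out, CB replicate 1 among them in each case (adjusted p up to 0.122 for Col5a1 and 0.265 for Col6a1).

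**Figure D5:**
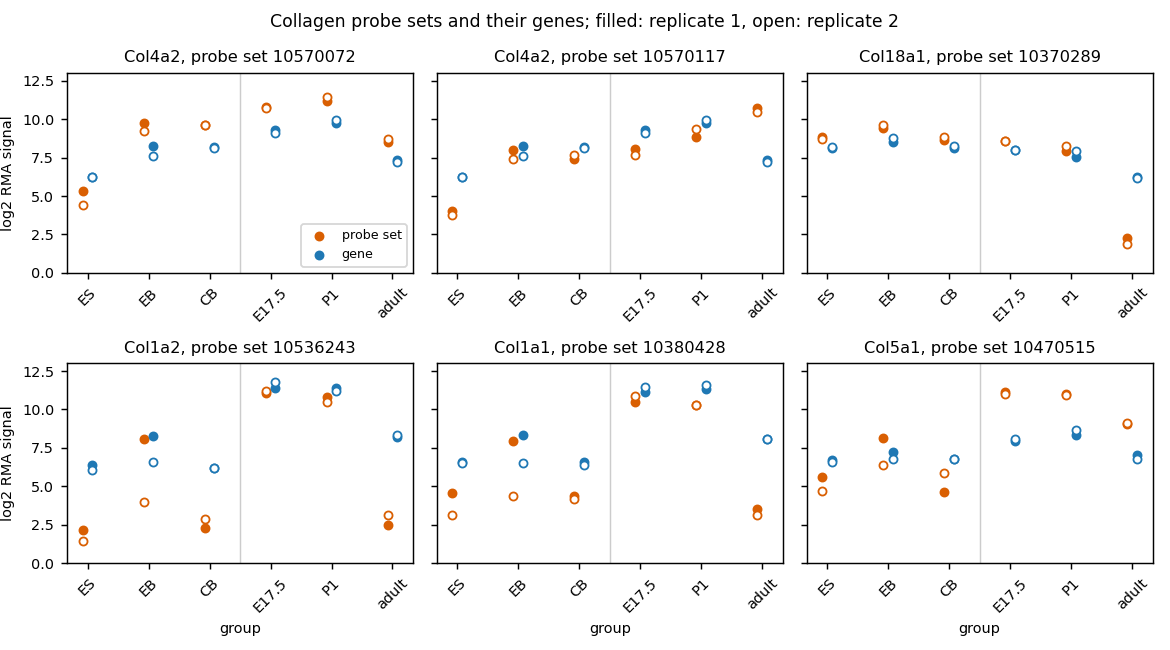
Log2 signal of 6 collagen probe sets (orange) and of their genes (blue) in the 6 groups; filled points are replicate 1 and open points replicate 2. In adult hearts probe set 10570117 of Col4a2 stands at 10.74 and 10.48 while the gene is at 7.32 and 7.22. There probe set 10370289 of Col18a1 stands at 2.30 and 1.91, far below the median probe set signal, 6.46.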

How the data were processed

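Each of the 12 RNA samples has a gene-level and an exon-level set of values. The deposited values are log2 signals that the authors computed by RMA in Affymetrix Power Tools, per the submitters' processing notes; the sources used here give neither versions nor a genome build. Per the labels' protocols, RNA was extracted with TRIzol and reduced in rRNA before amplification. Of 35556 transcript clusters 21789 had 1 platform gene symbol, 1621 several and 12146 none; the first kind was used, with the brightest cluster of each gene. limma 3.58.1 in R 4.3.3 fitted all 12 arrays in 6 group means (lmFit and eBayes), with Benjamini-Hochberg adjustment over all genes of a comparison and 6 residual degrees of freedom. Every adjusted p in the text is from limma. The number of arrays limits the precision.

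The exon-level index is a probe set's log2 signal minus its gene's on the same array, for genes with at least 4 probe sets. A probe set was tested where the level filter passed: the gene at or above the median in both groups and the probe set in at least 1. Positions of probe sets were not used here. The members and lists were chosen with earlier results of these data known. Named in full were up to 3 called collagens per comparison and class with the largest changes and the 6 type IV genes. Of the other lists, named genes come from the 3 largest called changes per comparison, and probe sets from the largest call per gene, up to 8 genes. Second-cluster values, Col2a1, Col26a1 and the marker genes were named after their values were seen. Fits were tested on simulated data. Alternatives were a replicate block, a filter on dim genes, quantile normalization, an intensity trend, means of clusters, exon-level medians, and leaving out each array.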

Additional observations from a re-analysis of the deposited data

How the results depend on the processing

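Over the 7 comparisons 79 collagen changes were called. None changed direction in any of the 6 alternative fits or with any of the 12 arrays left out. Of the 79, 78 kept their call with the intensity trend, 77 with the mean of clusters, 75 after quantile normalization and 60 with exon-level medians; 77 of the 77 that passed the filter on dim genes did so. Replicate numbers did not pair the samples: deviations of same-numbered arrays correlated at -0.18 to 0.29 over 15 pairs of groups, with 2 over 0.1. With the replicate block 77 calls were kept, and 21 collagens were called in adult against E17.5 hearts; Col6a2 (adjusted p = 0.0602) and Col13a1 (0.0522) were lost there. Counts of collagen genes moved to 5 for EB minus ES after quantile normalization, 4 for CB minus EB with the dim filter and 0 for P1 minus E17.5 with exon-level medians. With an array left out they ran from 3 to 9 (EB minus ES), 1 to 5 (CB minus EB), 3 to 5 (CB minus ES), 0 to 3 (P1 minus E17.5), 21 to 28 (adult minus P1), 15 to 25 (adult minus E17.5) and 14 to 16 (CB minus E17.5). Counts of called probe sets with no filter on level were 18 for EB minus ES, 19 for CB minus ES, 227 for adult minus P1, 291 for adult minus E17.5 and 45 for CB minus E17.5. With the replicate block they were 0 for EB minus ES and 3 for CB minus E17.5, and against the median of the other probe sets 0 for EB minus ES and 2 for CB minus ES. With an array left out they ran from 0 to 1 (EB minus ES), 0 to 4 (CB minus ES), 0 to 3 (P1 minus E17.5), 47 to 143 (adult minus P1), 77 to 178 (adult minus E17.5) and 0 to 24 (CB minus E17.5). The cause of these shifts was not tested. With 2 arrays a group, a left-out fit assumes that the lone array varies like the other groups.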
